A study of Mus musculus with 13 samples.

Results

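The cytochrome P450 genes described here were the protein-coding genes whose symbol is Cyp with a family number, a subfamily letter and a gene number, and whose counts summed to at least 130 over the 13 libraries. Of the 54532 genes in the deposited table, 94 had such a symbol and 58 became members. The bile acid enzymes Cyp7a1, Cyp7b1, Cyp8b1 and Cyp27a1 were set aside, and 32 genes stayed under the count minimum, 13 of them with no count at all. Genes with another form of symbol, such as Cyp51, Cyp4a12a and Cyp4a12b, were not members. The members were chosen by their summed count, so their abundance is a description, and the family itself was proposed with its changes between groups in view. Just inside the minimum stood Cyp2a4 (170 counts), Cyp1a1 (173) and Cyp46a1 (204), and just outside it Cyp3a16 (100), Cyp2b9 (85) and Cyp21a1 (85).

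Cytochrome P450 enzymes are heme proteins, most of them anchored in the endoplasmic reticulum, that insert an oxygen atom into drugs, steroids, fatty acids and retinoids. They receive electrons from P450 reductase and cytochrome b5. The liver carries the largest supply, and many of its P450 genes are read under nuclear receptors such as CAR (Nr1i3), PXR (Nr1i2) and PPAR alpha, the aryl hydrocarbon receptor (Ahr) and liver factors such as HNF4 alpha. Several are expressed mainly around the central vein of the lobule, and inflammatory cytokines are known to lower many P450 mRNAs in liver.

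The libraries were made from livers of wild type C57 BL6 mice, 8 weeks old with an average weight of 20 g, and fall into 4 groups. The saline group (n = 3) had no agent. In the GalN/LPS group (n = 3) D-galactosamine at 500 mg/kg, which blocks transcription in hepatocytes, and lipopolysaccharide at 5 µg/kg, a bacterial trigger of inflammation, were injected into the peritoneum together. A pretreated group (n = 4) had received 300 µg/kg of dmPGE2, a dimethylated analogue of prostaglandin E2, 1 h before the same GalN/LPS injection, and the dmPGE2 group (n = 3) had dmPGE2 alone at that dose. Livers were taken 6 h after GalN/LPS, and the labels give no separate interval for dmPGE2 alone. Nothing in the labels says that each library is a separate animal, so p-values measure the spread between these samples, which may be technical.

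Library totals ran from 14829838 to 20777809 counts. All 58 members passed the filter on low counts, and 55 of them had a mean of at least 10 counts in every group. Cyp1a1, Cyp2a4 and Cyp4f18 fell under that line in some group. Levels are given as CPM, counts scaled to a common library size by TMM (trimmed mean of M values), unless FPKM, the deposited value per kilobase of transcript, is named. Overlap between groups was judged for single genes on these TMM-scaled levels alone. The TMM factors were 1.165 to 1.184 in saline livers, 0.904 to 1.137 after GalN/LPS, 0.6829 to 0.83 in pretreated livers and 1.163 to 1.285 after dmPGE2 alone. The library size implied by the deposited FPKM was 0.706 to 1.276 times the total count but 0.963 to 1.050 times the TMM-scaled size, so the FPKM values carry a scaling close to TMM. TMM raises pretreated levels against the others, and each change was also computed with plain library totals. With totals, the median of all 14280 genes tested moved from -0.10 to -0.61 (log2) in pretreated against GalN/LPS livers, so a member's change against that median is larger than its own value by 0.10 under TMM and by 0.61 under totals. Changes are log2 fold changes ± SE from edgeR's quasi-likelihood test with Benjamini-Hochberg adjustment over those genes, and "both scalings" means an adjusted p under 0.05 with TMM and with totals.

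Short promoter windows are shown for 5 members: Cyp1a2 and Cyp1b1, classed together yet changed in opposite ways after pretreatment, Cyp2b10, with the largest rise in pretreated livers, and Cyp2c67 and Cyp3a11, from the 2c and 3a gene clusters. RefSeq promoters (GRCm38.p6) matched 46 of the 58 members by symbol. Each line gives the 250 bases before the RefSeq start, 5′ to 3′ on the gene's strand. Capitals mark a TATA box (TATAAA), the core bound by the aryl hydrocarbon receptor (GCGTG), a C/EBP motif (TTGCNNAA) or an HNF4 motif (CAAAGNCCA), each searched on both strands. The windows lie at chr9:57683656-57683905 (minus strand), chr17:79715062-79715311 (minus), chr7:25897408-25897657 (plus), chr19:39649043-39649292 (minus) and chr5:145879855-145880104 (minus). The deposited gene spans, which follow another annotation, reach 48 bases into the window of Cyp1a2, 38 into that of Cyp2b10, 9 into that of Cyp2c67 and 110 into that of Cyp3a11, and end 20 bases short of that of Cyp1b1.
Cyp1a2: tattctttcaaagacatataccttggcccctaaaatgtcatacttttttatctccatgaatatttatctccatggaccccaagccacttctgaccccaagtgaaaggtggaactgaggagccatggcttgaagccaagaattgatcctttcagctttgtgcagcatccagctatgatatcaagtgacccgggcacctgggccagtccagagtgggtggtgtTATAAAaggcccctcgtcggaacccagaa
Cyp1b1: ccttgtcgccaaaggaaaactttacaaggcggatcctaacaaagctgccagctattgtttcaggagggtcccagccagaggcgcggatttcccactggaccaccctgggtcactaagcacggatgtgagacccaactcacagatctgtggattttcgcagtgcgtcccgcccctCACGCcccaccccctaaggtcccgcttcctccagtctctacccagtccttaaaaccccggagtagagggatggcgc
Cyp2b10: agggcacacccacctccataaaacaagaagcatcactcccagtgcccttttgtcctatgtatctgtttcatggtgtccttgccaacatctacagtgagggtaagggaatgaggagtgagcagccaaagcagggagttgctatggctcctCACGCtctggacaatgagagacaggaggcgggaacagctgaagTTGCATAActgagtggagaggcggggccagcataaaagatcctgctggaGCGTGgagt
Cyp2c67: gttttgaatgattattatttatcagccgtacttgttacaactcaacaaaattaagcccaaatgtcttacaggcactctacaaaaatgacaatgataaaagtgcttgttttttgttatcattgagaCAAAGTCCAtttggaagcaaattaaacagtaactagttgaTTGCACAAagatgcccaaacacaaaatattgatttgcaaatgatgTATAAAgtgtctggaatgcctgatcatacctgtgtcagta
Cyp3a11: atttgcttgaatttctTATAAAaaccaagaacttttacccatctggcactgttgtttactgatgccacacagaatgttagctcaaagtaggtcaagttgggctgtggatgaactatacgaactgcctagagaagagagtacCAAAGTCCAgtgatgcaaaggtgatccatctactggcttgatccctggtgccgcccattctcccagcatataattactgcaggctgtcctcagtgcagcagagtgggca

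Counted back from -1 at the base before the start, TATAAA begins at -29 in Cyp1a2 and at -40 in Cyp2c67. In Cyp3a11 these letters stand only far upstream, at -234. Cyp1b1 holds the receptor core at -76 and no TATAAA, and the Cyp1a2 window holds no such core. HNF4 motifs begin at -125 in Cyp2c67 and at -109 in Cyp3a11. Among all 46 matched members TATAAA stood in 21 windows (45.7%, against 12.4% of 32851 RefSeq promoters of the same length) and the HNF4 motif in 8 (17.4% against 1.7%). The C/EBP motif was in 10 (21.7% against 9.56%) and the receptor core in 9 (19.6% against 28.2%). Members of a gene cluster share ancestry, so their windows are not independent. The 8 windows with an HNF4 motif belonged to Cyp2a12, Cyp2a22, Cyp2c40, Cyp2c67, Cyp2c68, Cyp2c69, Cyp2c70 and Cyp3a11. Of these 8 members 5 were called higher in pretreated against GalN/LPS livers under TMM, as were 24 of the 38 without the motif (24.4% of all genes). With library totals in place of TMM, only 6 of all 58 members were called higher there (4.33% of all genes).

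By counts, Cyp2e1 alone held 23.4% of all member counts, followed by the 2c subfamily (13 genes, 21.9%), 2d (7 genes, 16.2%), 3a (4 genes, 14.8%), Cyp2f2 (5.53%), 1a (4.86%) and 2a (4.51%). The 23 subfamilies sit largely in clusters: 2c on chromosome 19, 2d on 15, 3a on 5 and 2a, 2b, 2f and 2g on 7. Per length, the order in saline livers was led by Cyp2e1 at 2104 ± 539 FPKM (SD, n = 3). Cyp2d9 (559.7 ± 136), Cyp2f2 (471 ± 29.99), Cyp2d10 (449 ± 61.9) and Cyp1a2 (435 ± 122) came next, and neighbours among these 4 differed by less than the SD of either, except that Cyp2d9 and Cyp2f2 differed by more than the SD of Cyp2f2. Pretreated livers had Cyp2e1 at 4093 ± 980 FPKM (n = 4), with Cyp1a2 (1117 ± 236), Cyp3a11 (1085 ± 354), Cyp2d9 (1036 ± 44.4), Cyp2c29 (1033 ± 228) and Cyp2f2 (1002 ± 69.8) close to each other behind it. Cyp1a2 and Cyp2c29 thus stood level with Cyp2d9 there, while in saline livers Cyp2c29 was at 264 ± 55.4 FPKM.

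All 58 members together held 2.26%, 2.26% and 1.76% of the saline libraries, 2.41%, 2.85% and 1.98% of the GalN/LPS libraries, 2.74%, 2.77%, 3.19% and 3.24% of the pretreated libraries and 2.31%, 1.78% and 2.17% of the dmPGE2 libraries. The GalN/LPS libraries overlapped both the saline and the pretreated ones. Means were 2.09 ± 0.29%, 2.41 ± 0.43%, 2.99 ± 0.27% and 2.08 ± 0.27% (SD) of all counts, in that order. The Cyp2c genes held 0.387 ± 0.0540% of saline totals, 0.568 ± 0.150% after GalN/LPS and 0.702 ± 0.0819% in pretreated livers. Cyp2e1 had shares of 0.526 ± 0.136%, 0.511 ± 0.187% and 0.662 ± 0.116% in the same groups.

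**Figure D1:**
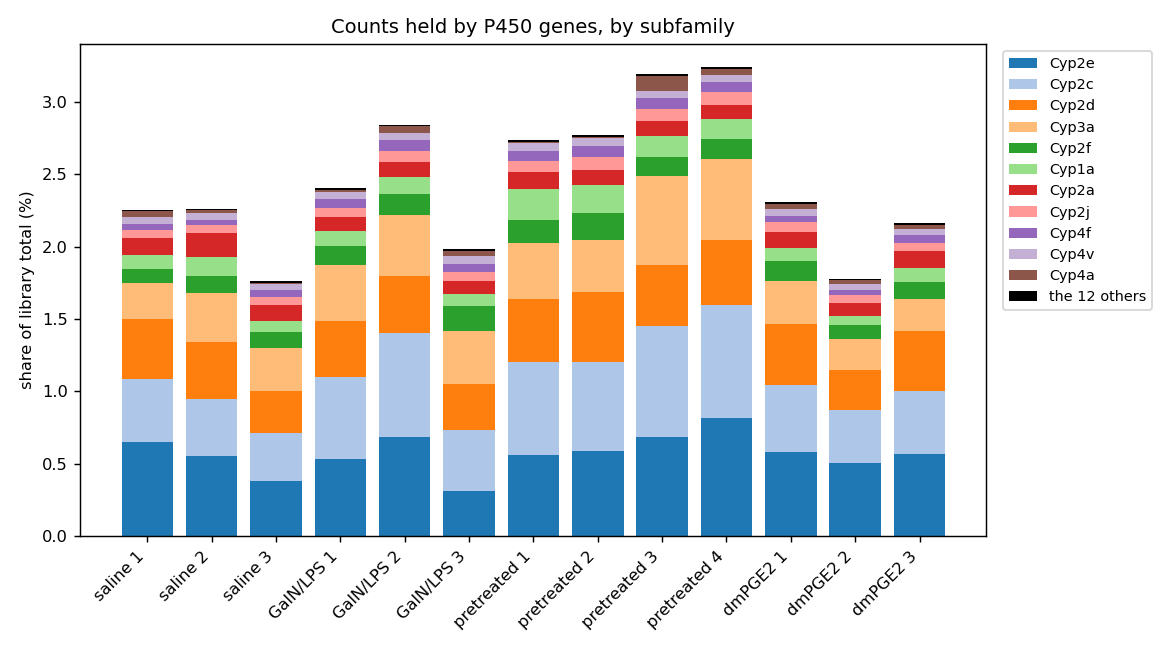
Stacked bars give the percentage of each library's total count held by P450 genes, with 1 colour for each of the 11 subfamilies with the most counts and black for the 12 others, for each of the 13 libraries. Pretreated bars reach 2.74% to 3.24%, saline bars 1.76% to 2.26%, and Cyp2e, Cyp2c, Cyp2d and Cyp3a make up most of every bar.

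Taken 6 h after GalN/LPS, livers had 20 of 58 P450 mRNAs higher and 4 lower than saline livers, and 34 did not pass the test. Over all genes tested 27.4% were higher and 25.6% lower. The median member change was 0.52, against 0.025 for all genes, and with totals the counts were 15 higher (21.5% of all genes) and 6 lower (30% of all genes), at a median of 0.33 against -0.15. Leaving out the library GalN/LPS 2 brought the higher count to 10, which is 17.2% of the members against 24.8% of all genes in that fit. The share of members thus stood under that of all genes there, while all 13 libraries gave 34.5% of the members. That library held the highest level of its group for 43 of the 58 members, and its TMM factor was the lowest of the group. The groups did not overlap for 15 members that were higher (30.3% of all genes) and 4 that were lower (29.5% of all genes). In bulk tissue, fewer cells of a type and less RNA per cell cannot be told apart.

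Pretreated livers had higher P450 mRNA than GalN/LPS livers under TMM: 30 members were higher (24.4% of all genes) and 2 lower (30.1% of all genes), with a median change of 0.64 against -0.098 for all genes. With library totals 6 were higher (4.33% of all genes) and 5 lower (47.6% of all genes), at a median of 0.15 against -0.61. Against the median of all genes the members stood 0.74 higher under TMM and 0.76 higher with totals. A change of scaling moves the values of all genes by about the same amount, so this distance cannot test the scaling. Cyp1a2, Cyp2b10, Cyp2c29, Cyp2c67, Cyp2r1 and Cyp3a13 were higher on both scalings and with any 1 library left out. Cyp1b1 and Cyp4b1 were lower on the same terms. Under TMM the groups did not overlap for 26 members that were higher (22.7% of all genes) and 3 that were lower (27.7% of all genes). Overlap was not counted with totals. Both comparisons share the GalN/LPS libraries.

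**Figure D2:**
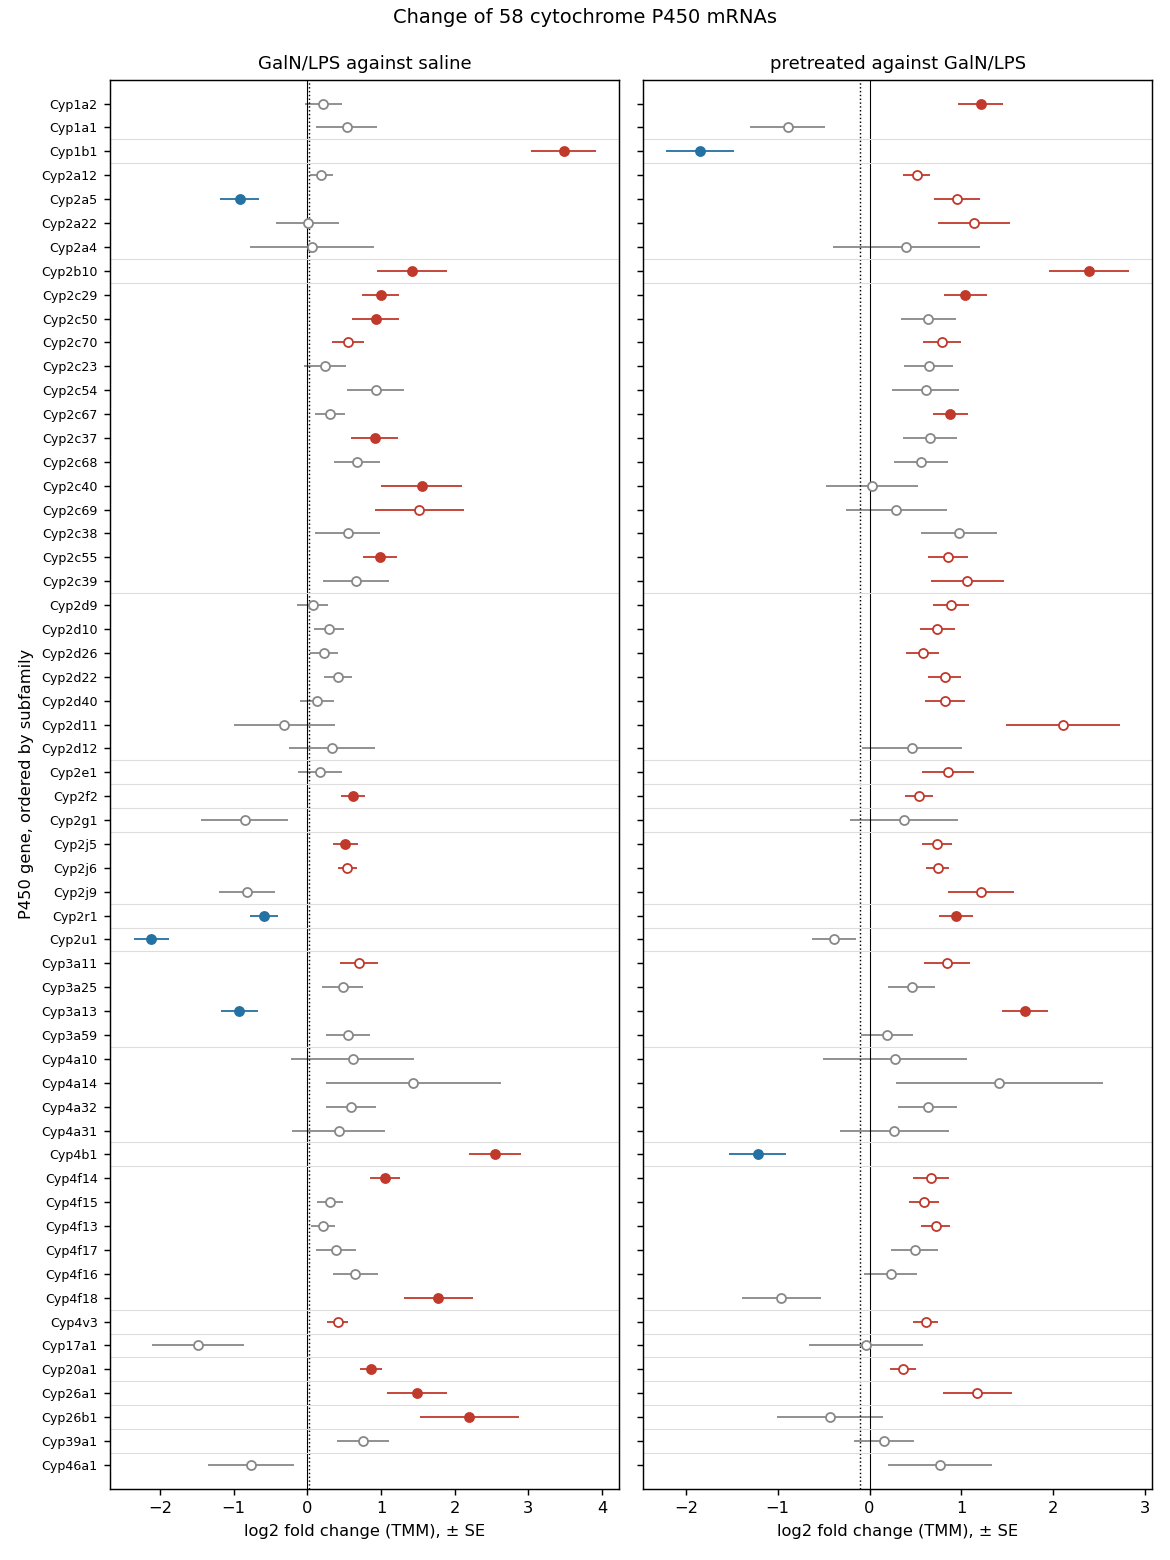
Points are log2 fold changes (TMM) with SE bars for the 58 members in subfamily order, for GalN/LPS against saline on the left and pretreated against GalN/LPS on the right. Red points are higher and blue points lower at an adjusted p under 0.05, filled where the call held on both scalings, grey points did not pass, and the dotted line is the median of all genes. On the right most red points are open, and Cyp1b1 and Cyp4b1 are the blue points.

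The aryl hydrocarbon receptor class comprises Cyp1a1, Cyp1a2 and Cyp1b1, which oxidise planar aromatic compounds. Cyp1a2, the caffeine-metabolising enzyme of pericentral hepatocytes, was at 801, 1121 and 661 CPM in saline livers, 929.9, 1345 and 731 after GalN/LPS, 2977, 2319.8, 1986 and 1988 in pretreated livers and 697, 502 and 764 after dmPGE2 alone. Every pretreated liver lay above every other liver, and the other 3 groups overlapped. Its change was 0.22 ± 0.25 after GalN/LPS (adjusted p = 0.494) and 1.21 ± 0.24 in pretreated against GalN/LPS livers (adjusted p = 0.000907), where totals gave 0.73 (adjusted p = 0.0131). Cyp1b1, known mainly from cells other than hepatocytes, was scarce, at 0.641, 0.647 and 0.192 CPM in saline livers, 7.69, 3.53 and 5.48 after GalN/LPS, 0.873, 1.64, 1.25 and 2.45 in pretreated livers and 0.599, 0.522 and 0.506 after dmPGE2 alone. All GalN/LPS livers were above all others, and the pretreated livers lay between them and the saline livers without overlap with either. It rose by 3.48 ± 0.44 after GalN/LPS (adjusted p = 7e-06) and was lower in pretreated livers, at -1.84 ± 0.37 (adjusted p = 0.000834). Cyp1a1 reached at most 1.54 CPM in any library, with changes of 0.53 ± 0.41 and -0.89 ± 0.41, neither of which passed the test under TMM. With totals it was lower in pretreated against GalN/LPS livers, at -1.40 (adjusted p = 0.0149).

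Cyp2a enzymes hydroxylate coumarin and steroids. Cyp2a5, the coumarin hydroxylase, was at 437, 799 and 401 CPM in saline livers, 293, 352 and 221 after GalN/LPS, 697, 437, 604 and 496 in pretreated livers and 351, 248 and 401 after dmPGE2 alone. The GalN/LPS livers were all below the saline and the pretreated livers, and the dmPGE2 livers overlapped GalN/LPS. It was lower after GalN/LPS by -0.92 ± 0.27 (adjusted p = 0.00876), a call lost without the library saline 2 (-0.55, adjusted p = 0.0735). In pretreated against GalN/LPS livers it was higher by 0.95 ± 0.25 under TMM (adjusted p = 0.00559), while totals gave 0.45 (adjusted p = 0.13). Cyp2a5 shares 38.6% of its 50-base stretches with other genes, most of these with Cyp2a4, so reads of the pair can be split between them.

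Cyp2a12, a testosterone hydroxylase, was at 555, 618 and 494 CPM in saline livers, 522, 786 and 595 after GalN/LPS, 907, 857, 896 and 958 in pretreated livers and 543, 515 and 536 after dmPGE2 alone. Pretreated livers lay above all others, and the other groups overlapped. Its rise over GalN/LPS livers was 0.51 ± 0.15 under TMM (adjusted p = 0.00995) and 0.02 with totals (adjusted p = 0.9). Without GalN/LPS 1 the TMM value was 0.39 (adjusted p = 0.0603).

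Cyp2b10, the classical target of CAR and a marker of response to phenobarbital, had the largest rise of any member in pretreated livers. Its levels were 4.86, 2.29 and 4.7 CPM in saline livers, 5.83, 18.2 and 8.03 after GalN/LPS, 87.9, 33.5, 71 and 30.9 in pretreated livers and 23.8, 15.9 and 32.2 after dmPGE2 alone. Saline livers were below all others, pretreated livers were above all GalN/LPS livers, and dmPGE2 livers overlapped both injured groups. The change in pretreated against GalN/LPS livers was 2.39 ± 0.44 (adjusted p = 0.000433), and totals gave 1.93 (adjusted p = 0.00103). After dmPGE2 alone it was 2.60 ± 0.47 against saline (adjusted p = 0.0628), short of the threshold. That adjusted p was 0.0401 without GalN/LPS 2 and 0.043 without pretreated 1, 2 libraries outside the comparison that enter the shared estimate of spread. DESeq2, and edgeR without the low-count filter, also called Cyp2b10 higher after dmPGE2 alone. The rise after GalN/LPS, 1.42 ± 0.47 (adjusted p = 0.0191), was 0.80 without GalN/LPS 2 (adjusted p = 0.171) and 1.14 without saline 2 (adjusted p = 0.0816). Between pretreated and dmPGE2 livers the change was 1.22 ± 0.41 (adjusted p = 0.0153), with 0.44 on totals (adjusted p = 0.333), and the groups overlapped.

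**Figure D3:**
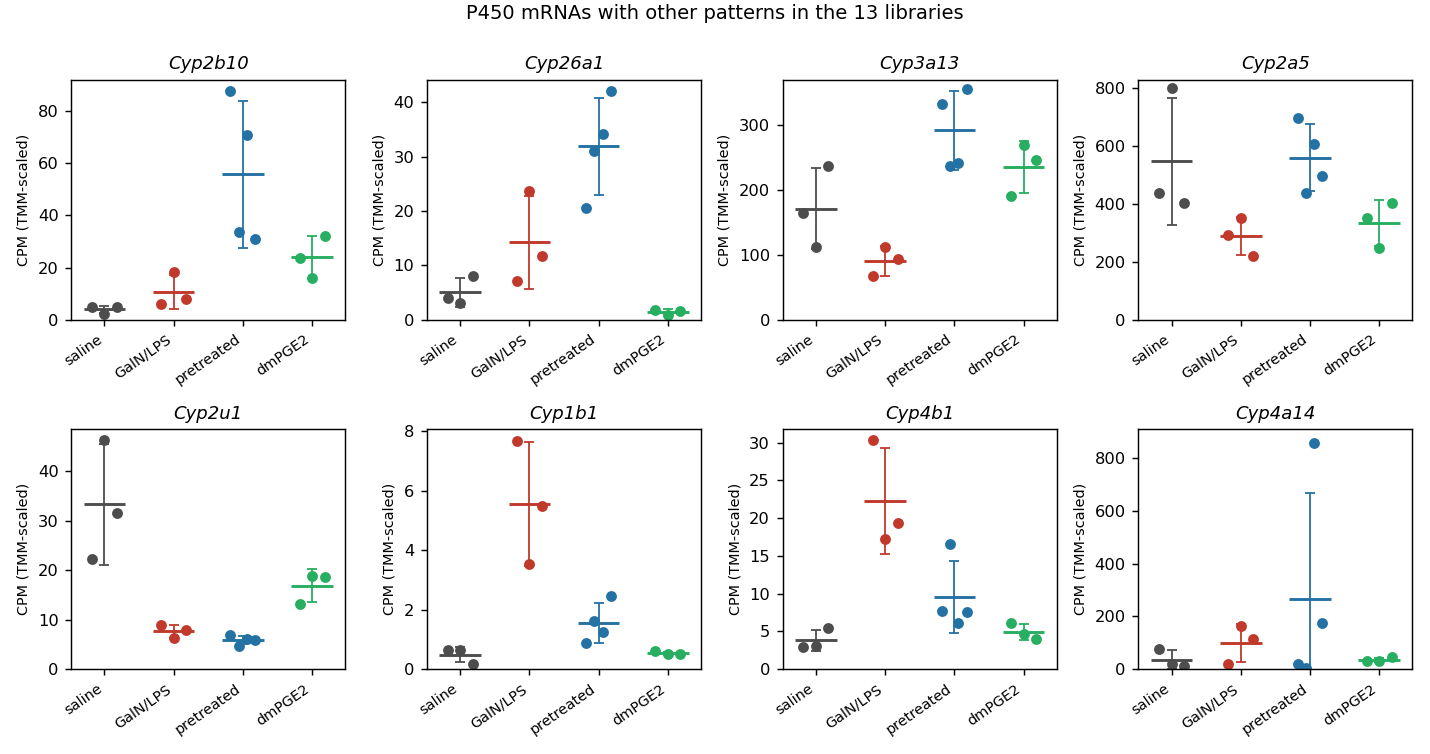
Points are TMM-scaled CPM of 8 members in each of the 13 libraries, on linear axes from 0, with the group mean as a line and SD bars. Cyp2b10 and Cyp26a1 are highest in pretreated livers, Cyp3a13 and Cyp2a5 have their lowest mean after GalN/LPS, Cyp2u1 is low in both injured groups, Cyp1b1 and Cyp4b1 peak after GalN/LPS, and Cyp4a14 varies most between pretreated livers.

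The 2c subfamily makes epoxides and hydroxides of arachidonic acid and oxidises many drugs. Of its 13 genes, 7 were higher (27.4% of all genes) and none lower (25.6%) after GalN/LPS with TMM, at a median of 0.91. With totals 5 were higher (21.5% of all genes) and 0 lower (30%). Only Cyp2c29 and Cyp2c55 of them kept the call on both scalings and with any 1 library left out. Cyp2c29, a target of CAR, was at 938, 609.8 and 837 CPM in saline livers, 1569.8, 2092 and 1084 after GalN/LPS, 3373, 2399, 4089.8 and 3177 in pretreated livers and 1257, 969 and 1154 after dmPGE2 alone. Every GalN/LPS liver was above every saline liver, and every pretreated liver above every GalN/LPS liver. Its changes were 0.99 ± 0.25 (adjusted p = 0.00307) and then 1.04 ± 0.24 (adjusted p = 0.00186), the latter 0.55 with totals (adjusted p = 0.0284). Pretreatment on top of GalN/LPS left 5 of the 13 higher than GalN/LPS alone under TMM (24.4% of all genes). With totals 2 were higher, Cyp2c29 and Cyp2c67 (4.33% of all genes).

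Cyp2c67, whose promoter window is shown above, was at 254, 273 and 227 CPM in saline livers, 291, 406 and 236 after GalN/LPS, 510.1, 448, 647 and 687 in pretreated livers and 250.2, 204 and 215 after dmPGE2 alone. Pretreated livers were above all others, and the other groups overlapped. The change against GalN/LPS livers was 0.88 ± 0.19 (adjusted p = 0.0015), with 0.38 on totals (adjusted p = 0.047). It shares 52.8% of its 50-base stretches with other genes, most with Cyp2c40, so its level is uncertain.

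Cyp2c70, which hydroxylates bile acids in mice and shares no 50-base stretch with another gene, was at 577, 593 and 655 CPM in saline livers, 720.2, 1216 and 738 after GalN/LPS, 1743, 1635, 1054 and 1735 in pretreated livers and 600.5, 660.3 and 557 after dmPGE2 alone. The library pretreated 3 was low within its group and overlapped GalN/LPS 2. Its change in pretreated against GalN/LPS livers was 0.79 ± 0.21 (adjusted p = 0.00517) under TMM and 0.32 with totals (adjusted p = 0.143). After GalN/LPS it was 0.55 ± 0.22 (adjusted p = 0.0447), and 0.25 without GalN/LPS 2 (adjusted p = 0.288), the smallest value among the 10 libraries whose removal ended the call.

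Cyp2c55 was scarcer, at 5, 7.87 and 7.58 CPM in saline livers, 16.1, 14.2 and 10.2 after GalN/LPS, 22.4, 19.2, 29.2 and 27.1 in pretreated livers and 7.9, 5.28 and 8.68 after dmPGE2 alone. GalN/LPS livers were above saline livers and pretreated livers above both, without overlap. It rose by 0.99 ± 0.23 after GalN/LPS (adjusted p = 0.0022) on both scalings, and by 0.86 ± 0.22 in pretreated livers under TMM (adjusted p = 0.00394), with 0.33 on totals (adjusted p = 0.233).

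Cyp2c50 stood at 769, 739.7 and 366 CPM in saline livers, 1086, 1778 and 697 after GalN/LPS, 1599, 1396, 1943 and 2471.1 in pretreated livers and 664, 522 and 697 after dmPGE2 alone, with saline and GalN/LPS livers overlapping. Its rise after GalN/LPS of 0.93 ± 0.32 (adjusted p = 0.0239) fell to 0.50 without GalN/LPS 2 (adjusted p = 0.181) and 0.64 without saline 3 (adjusted p = 0.11). Cyp2c23, an arachidonic acid epoxygenase known best from kidney, was at 399.5, 451 and 362 CPM in saline livers, 413, 662 and 358 after GalN/LPS, 499.9, 494, 960.3 and 1032 in pretreated livers and 232, 221 and 288 after dmPGE2 alone. Pretreated livers spread widely, and all dmPGE2 livers were below all saline livers. Its change was 0.64 ± 0.27 in pretreated against GalN/LPS livers (adjusted p = 0.0529) and 1.59 ± 0.28 in pretreated against dmPGE2 livers (adjusted p = 0.000112). Cyp2c40 and Cyp2c69 share 70.2% and 54.8% of their 50-base stretches with other genes. Cyp2c40 was at 35.6, 159 and 43.1 CPM after GalN/LPS, with GalN/LPS 2 apart, and its rise of 1.55 ± 0.55 (adjusted p = 0.0254) was 0.54 without that library (adjusted p = 0.364) and 1.14 without saline 3 (adjusted p = 0.0919).

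None of the 7 Cyp2d genes, relatives of the human debrisoquine hydroxylase, passed the test after GalN/LPS, at a median of 0.22. Against GalN/LPS livers 6 of 7 were higher in pretreated livers under TMM (24.4% of all genes) and none with totals (4.33% of all genes). Cyp2d9, a male-biased steroid hydroxylase, was at 1739, 1575 and 1072 CPM in saline livers, 1669, 1723 and 1225 after GalN/LPS, 2740.1, 2791, 2809 and 3023 in pretreated livers and 1614, 1117 and 1653 after dmPGE2 alone. The 4 pretreated livers were tightly grouped above all others, and the other groups overlapped. Its change from GalN/LPS to pretreated livers was 0.88 ± 0.20 (adjusted p = 0.00179), with 0.38 on totals (adjusted p = 0.11).

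Cyp2d10 was at 723, 826 and 635 CPM in saline livers, 724, 1170.4 and 786 after GalN/LPS, 1548, 1298, 1415 and 1697 in pretreated livers and 823, 593 and 842 after dmPGE2 alone and rose by 0.74 ± 0.19 in pretreated livers under TMM (adjusted p = 0.00476), with 0.25 on totals (adjusted p = 0.204). Cyp2d26 was at 764, 656 and 586 CPM in saline livers, 661, 1033 and 649 after GalN/LPS, 1097, 1101, 1151 and 1316 in pretreated livers and 552, 457 and 541 after dmPGE2 alone, and its rise of 0.58 ± 0.18 (adjusted p = 0.0122) was 0.09 with totals (adjusted p = 0.606). For both genes the pretreated livers lay above all other livers. Without GalN/LPS 1 or GalN/LPS 3 the Cyp2d26 call was lost, at 0.48 (adjusted p = 0.0637) and 0.45 (adjusted p = 0.0754). Cyp2d9, Cyp2d10 and Cyp2d11 each share over 25% of their 50-base stretches with other genes.

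Cyp2e1, the pericentral enzyme that oxidises ethanol and paracetamol, was the most abundant member, at 5453, 4686 and 3248 CPM in saline livers, 4692, 7578 and 2833 after GalN/LPS, 7768, 7081, 9676 and 11932 in pretreated livers and 4494, 4361 and 4484 after dmPGE2 alone. GalN/LPS livers spanned a wide range that overlapped both saline and pretreated livers, while the dmPGE2 livers were nearly equal. After GalN/LPS its change was 0.17 ± 0.30 (adjusted p = 0.654). In pretreated against GalN/LPS livers it was 0.86 ± 0.29 under TMM (adjusted p = 0.0194) and 0.37 with totals (adjusted p = 0.186). The TMM call was lost without GalN/LPS 1, GalN/LPS 3 or pretreated 4, at adjusted p of 0.0631, 0.102 and 0.0623, and without GalN/LPS 3 its size was 0.56.

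Cyp2f2, a naphthalene-oxidising enzyme of periportal hepatocytes, was at 867, 968 and 983 CPM in saline livers, 1153, 1594 and 1572 after GalN/LPS, 2208, 2223, 1925 and 2019 in pretreated livers and 1035, 844 and 965 after dmPGE2 alone. Under TMM groups rose in steps from saline to GalN/LPS to pretreated without overlap. As shares of library totals, GalN/LPS livers (0.1311% to 0.1734%) and pretreated livers (0.1366% to 0.1845%) overlapped. The rise after GalN/LPS was 0.62 ± 0.16 (adjusted p = 0.00456) and held on both scalings, but without GalN/LPS 3 it was 0.43 (adjusted p = 0.0614). Pretreated livers were higher again by 0.54 ± 0.15 under TMM (adjusted p = 0.00803), which was 0.05 with totals (adjusted p = 0.814) and 0.41 without GalN/LPS 1 (adjusted p = 0.051).

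**Figure D4:**
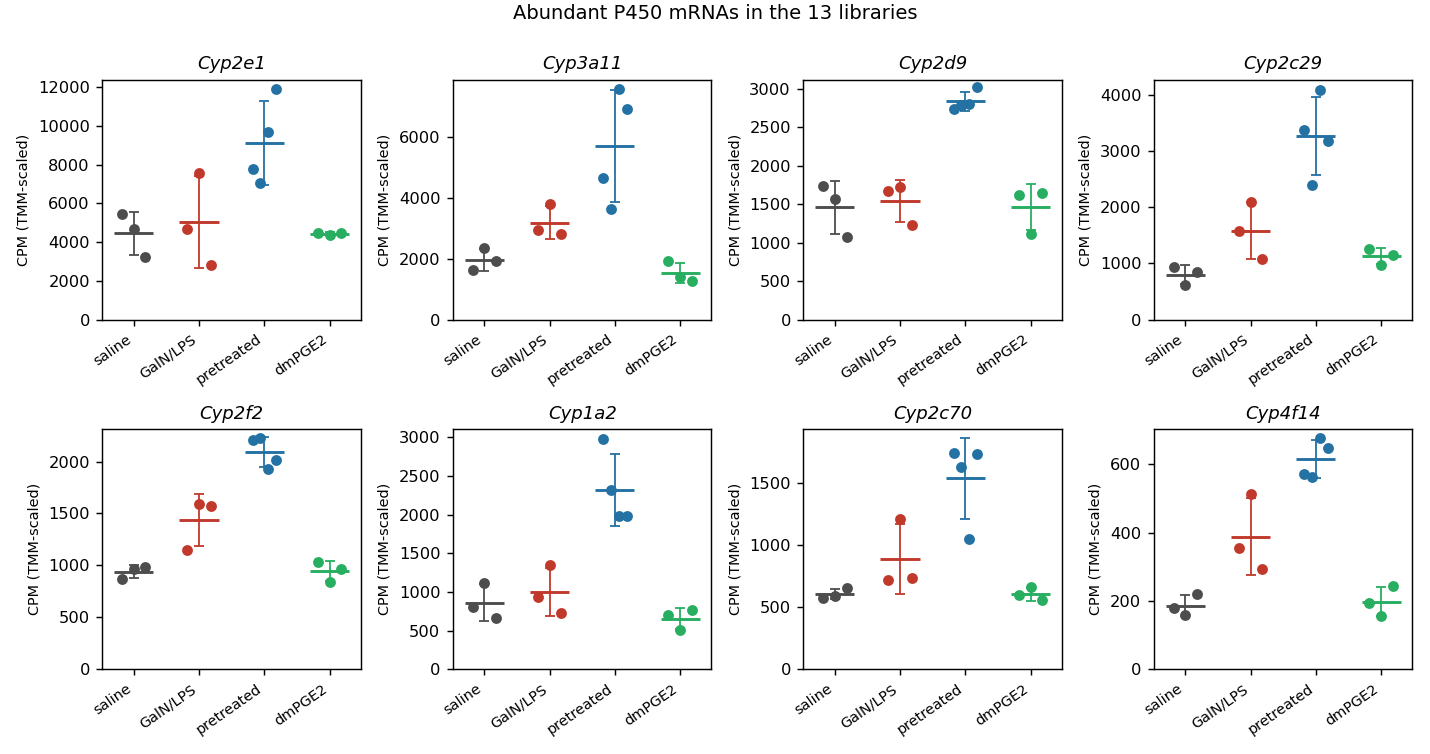
Points are TMM-scaled CPM of 8 abundant members in each of the 13 libraries, on linear axes from 0, with the group mean as a line and SD bars. Pretreated livers are highest by mean in each panel under TMM, and Cyp2e1, Cyp3a11 and Cyp2c70 show overlap between pretreated and GalN/LPS livers.

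Cyp2j enzymes epoxidise arachidonic acid. Cyp2j5 was at 400.5, 372 and 429.5 CPM in saline livers, 474, 744 and 501 after GalN/LPS, 923, 858, 978 and 1051 in pretreated livers and 416, 430.3 and 374 after dmPGE2 alone, in steps from saline to GalN/LPS to pretreated livers without overlap. It rose by 0.52 ± 0.17 after GalN/LPS (adjusted p = 0.0185), a call lost without GalN/LPS 2 (0.28, adjusted p = 0.108), saline 1 (adjusted p = 0.0547) or saline 2 (adjusted p = 0.0712). Its further rise in pretreated livers was 0.73 ± 0.16 (adjusted p = 0.00167), with 0.24 on totals (adjusted p = 0.0878). Cyp2j9, far scarcer, ranged from 0.97 CPM in a dmPGE2 liver to 7.69 CPM in a pretreated liver, and its dmPGE2 livers were all below the saline livers.

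Cyp2r1, a vitamin D 25-hydroxylase, was at 12.8, 11.8 and 11.2 CPM in saline livers, 8.01, 9.38 and 6.5 after GalN/LPS, 15.3, 10.8, 18.1 and 17 in pretreated livers and 11.7, 10.03 and 10.1 after dmPGE2 alone. GalN/LPS livers were below all saline and all pretreated livers. It fell after GalN/LPS, at -0.58 ± 0.19 (adjusted p = 0.0159), where leaving out saline 1 gave -0.54 (adjusted p = 0.0518). Pretreated livers exceeded GalN/LPS livers by 0.94 ± 0.18 (adjusted p = 0.000618), and by 0.43 with totals (adjusted p = 0.0435).

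Cyp2u1, a fatty acid hydroxylase, had the largest fall of any member after GalN/LPS. Its levels were 22.2, 46.4 and 31.5 CPM in saline livers, 8.86, 6.24 and 7.93 after GalN/LPS, 6.9, 4.78, 6.08 and 5.83 in pretreated livers and 13.1, 18.9 and 18.7 after dmPGE2 alone. Both injured groups lay below all saline and all dmPGE2 livers, and the 2 injured groups overlapped. The change was -2.11 ± 0.24 after GalN/LPS (adjusted p = 2.58e-06) and -2.50 ± 0.23 in pretreated against saline livers (adjusted p = 2.15e-07), on both scalings. Pretreated against GalN/LPS livers gave -0.39 ± 0.24 (adjusted p = 0.18) under TMM and -0.92 with totals (adjusted p = 0.0059).

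The 3a subfamily clears many drugs and steroids, and Cyp3a11 is its main liver form and a target of PXR. Cyp3a11 was at 1612, 2340.1 and 1923 CPM in saline livers, 2952, 3793 and 2798 after GalN/LPS, 4659.6, 3644, 7556 and 6919.8 in pretreated livers and 1918, 1404 and 1279 after dmPGE2 alone. GalN/LPS livers were above saline livers, and pretreated livers spread from within the GalN/LPS range upwards. It rose by 0.70 ± 0.26 after GalN/LPS under TMM (adjusted p = 0.0339), with 0.51 on totals (adjusted p = 0.0611). Leaving out saline 1, saline 3, GalN/LPS 2 or GalN/LPS 3 ended that call, at adjusted p of 0.133, 0.0784, 0.113 and 0.0671. In pretreated against GalN/LPS livers its change was 0.84 ± 0.25 under TMM (adjusted p = 0.0104) and 0.32 with totals (adjusted p = 0.206).

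Cyp3a13 went the other way after GalN/LPS. This gene, which shares no 50-base stretch with another gene, was at 164, 113 and 237 CPM in saline livers, 66.8, 112 and 92.8 after GalN/LPS, 332, 237, 242 and 356 in pretreated livers and 191, 269.8 and 247 after dmPGE2 alone. Under TMM all GalN/LPS livers were below all saline livers, and all pretreated livers were above both groups, but narrowly. GalN/LPS 2 was at 111.5 against 112.7 CPM in saline 2, and pretreated 2 at 237.4 against 236.7 CPM in saline 3. In raw counts saline 3, at 4931, was above every pretreated library (2904 to 4208). It fell after GalN/LPS, at -0.92 ± 0.26 (adjusted p = 0.00636), and was higher in pretreated against GalN/LPS livers by 1.69 ± 0.25 (adjusted p = 9.29e-05) or 1.19 with totals (adjusted p = 0.000278). Against saline, pretreated livers differed by 0.77 ± 0.24 under TMM (adjusted p = 0.0106) and 0.08 with totals (adjusted p = 0.758), and without saline 2 the TMM value was 0.54 (adjusted p = 0.0635).

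Cyp4a genes encode fatty acid omega-hydroxylases and are classical targets of PPAR alpha. Cyp4a10 was at 249, 89.2 and 29.2 CPM in saline livers, 75.6, 296 and 190.1 after GalN/LPS, 47.5, 31.5, 485 and 344 in pretreated livers and 203, 148 and 140.2 after dmPGE2 alone. Single livers within a group differed several-fold, and all groups overlapped, with the dmPGE2 livers the closest together. Cyp4a14 was wider still, at 19.6, 4.37, 859 and 177 CPM in pretreated livers. Cyp4a10 had 0.61 ± 0.83 after GalN/LPS (adjusted p = 0.562), Cyp4a14 had 1.41 ± 1.13 in pretreated against GalN/LPS livers (adjusted p = 0.298), and none of the 4 genes passed either test.

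Cyp4b1, a fatty acid and xenobiotic hydroxylase known best from lung, was at 2.89, 3.09 and 5.47 CPM in saline livers, 30.3, 17.2 and 19.3 after GalN/LPS, 7.77, 16.6, 6.08 and 7.61 in pretreated livers and 6.14, 4.64 and 4.05 after dmPGE2 alone. GalN/LPS livers were above all others, and pretreated 2 was nearest to them. It rose by 2.55 ± 0.35 after GalN/LPS (adjusted p = 1.88e-05) and was lower in pretreated livers, at -1.22 ± 0.31 (adjusted p = 0.00407), on both scalings. Cyp4f18, a leukotriene B4 hydroxylase of leukocytes, was at 0.367, 0.299 and 1.15 CPM in saline, 1.75, 1.7 and 2.81 after GalN/LPS and 1.35, 1.16, 0.667 and 1.1 in pretreated livers, and rose by 1.78 ± 0.47 after GalN/LPS (adjusted p = 0.00484). Zfp961 overlaps Cyp4f18 on the other strand with 1203 counts against 222, and without stated strand their reads cannot be told apart.

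Markers of other cell types were examined beside Cyp1b1, Cyp4b1 and Cyp4f18. Over all genes tested 27.4% were higher after GalN/LPS and 30.1% lower in pretreated against GalN/LPS livers. Cyp1b1 and Cyp4b1 were higher after GalN/LPS and lower in pretreated against GalN/LPS livers, where Cyp4f18 was at -0.96 ± 0.43 under TMM (adjusted p = 0.0693) and at -1.48 with totals (adjusted p = 0.0117). Of 9 neutrophil markers 9 were higher after GalN/LPS and 8 lower in pretreated livers, and their summed level was 5.03 to 17.9 CPM in saline, 697 to 931 after GalN/LPS, 275 to 429 in pretreated livers and 5.90 to 9.74 after dmPGE2 alone. Sinusoidal endothelial markers (8 of 8 higher, then 8 of 8 lower) summed to 71.0 to 87.2, 529 to 663, 156 to 320.4 and 79.8 to 104 CPM in the same order. Stellate cell and fibroblast markers (7 of 8 higher, then 7 of 8 lower) summed to 90.9 to 143.0, 381 to 733, 104 to 319 and 96.2 to 124 CPM. Of 8 Kupffer cell and macrophage markers, 7 were higher after GalN/LPS and 8 lower in pretreated livers, with summed levels of 125 to 165, 560.0 to 918, 257 to 408 and 163 to 225 CPM. Cholangiocyte (5 of 5 tested), T and NK cell (5 of 6) and B cell markers (3 of 5) were also higher after GalN/LPS, and 3, 4 and 5 of them lower in pretreated livers. No marker of these lists was at 0 in a whole group, and their part in the changes of Cyp1b1, Cyp4b1 and Cyp4f18 was not tested.

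Cyp4f14, a leukotriene and vitamin omega-hydroxylase of liver, was at 181, 159.5 and 219 CPM in saline livers, 356, 513 and 294 after GalN/LPS, 570.5, 563, 676 and 649 in pretreated livers and 195, 157 and 243 after dmPGE2 alone, in steps without overlap from saline to GalN/LPS to pretreated livers. It rose by 1.06 ± 0.21 after GalN/LPS (adjusted p = 0.000493), on both scalings and with any 1 library left out. Pretreated livers were higher again by 0.67 ± 0.20 under TMM (adjusted p = 0.0099), with 0.18 on totals (adjusted p = 0.4) and 0.49 without GalN/LPS 3 (adjusted p = 0.0688).

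Cyp4v3, another fatty acid omega-hydroxylase, was at 371, 406 and 323 CPM in saline livers, 426, 563 and 477 after GalN/LPS, 758, 736, 729.8 and 761 in pretreated livers and 355, 335 and 371 after dmPGE2 alone, again in steps without overlap. Its rise after GalN/LPS was 0.41 ± 0.14 (adjusted p = 0.022) under TMM and 0.23 with totals (adjusted p = 0.146), and it was lost without saline 1, saline 3, GalN/LPS 2 or GalN/LPS 3, at adjusted p of 0.0611, 0.115, 0.0812 and 0.127. In pretreated against GalN/LPS livers it was 0.61 ± 0.13 (adjusted p = 0.00162), with 0.11 on totals (adjusted p = 0.454). As shares of library totals, those groups overlapped, at 0.04852% to 0.05263% after GalN/LPS and 0.05179% to 0.06105% in pretreated livers.

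Cyp26 enzymes clear retinoic acid. Cyp26a1 was at 3.9, 3.09 and 8.11 CPM in saline livers, 7.05, 23.7 and 11.8 after GalN/LPS, 20.5, 31, 34.1 and 42.1 in pretreated livers and 1.72, 0.812 and 1.6 after dmPGE2 alone. The dmPGE2 livers were below all others, the pretreated livers above all saline livers, and GalN/LPS 2 overlapped the pretreated range. It rose by 1.49 ± 0.41 after GalN/LPS (adjusted p = 0.00636), a call lost without GalN/LPS 2 (0.90, adjusted p = 0.0654). In pretreated against GalN/LPS livers it was higher by 1.17 ± 0.37 under TMM (adjusted p = 0.0151), a call lost with totals (0.72, adjusted p = 0.102), without GalN/LPS 1 (0.85, adjusted p = 0.0745) and without GalN/LPS 3 (1.05, adjusted p = 0.0659). In pretreated against dmPGE2 livers the change was 4.49 ± 0.46 (adjusted p = 6.61e-07), the largest of any member in that comparison, and 3.73 with totals (adjusted p = 1.45e-06). Cyp26b1 was at 10.4, 2.83 and 0.614 CPM after GalN/LPS, with GalN/LPS 1 apart, and its rise of 2.20 ± 0.67 (adjusted p = 0.0113) was 0.74 without that library (adjusted p = 0.275).

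Among the rest, Cyp20a1, a P450 with no settled substrate, was at 7.29, 7.37 and 9.84 CPM in saline livers, 15.7, 14 and 15 after GalN/LPS, 19.1, 17.8, 19.7 and 20.3 in pretreated livers and 9.66, 11.5 and 9.4 after dmPGE2 alone, and both injured groups lay above all others. It rose by 0.87 ± 0.15 after GalN/LPS (adjusted p = 0.000149) on both scalings, whereas in pretreated against GalN/LPS livers the sign differed between TMM, 0.36 ± 0.14 (adjusted p = 0.0358), and totals, -0.16 (adjusted p = 0.427). The TMM call was also lost under other alternatives, among them RLE, DESeq2, no filter and leaving out any 1 of the GalN/LPS libraries or pretreated 1, 3 or 4. Cyp17a1, a steroid hydroxylase, was at 2.47, 4.83 and 19.8 CPM in saline livers, with saline 3 apart. Its change of -1.52 ± 0.59 in pretreated against saline livers (adjusted p = 0.0321) was -0.21 without that library (adjusted p = 0.732).

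After dmPGE2 alone no member passed the test in either direction with edgeR, and none of the 14280 genes did (0% higher and 0% lower). The groups did not overlap for 5 members that were higher (14.3% of all genes) and 10 that were lower (12% of all genes). Without adjustment 12 members had p under 0.05, 3 higher and 9 lower, as did 13.9% of all genes. DESeq2 called 1 member (Cyp2b10) higher and 3 lower, Cyp26a1 and Cyp2u1 among them, where it called 0.511% and 0.559% of all genes. For edgeR without the low-count filter these were 2 and 8 members and 1.08% and 0.638% of all genes, and limma on log2 FPKM called no member. Besides Cyp2b10, the members with the smallest adjusted p were Cyp2u1 at -0.98 ± 0.23 (adjusted p = 0.0862), Cyp26a1 at -1.82 ± 0.47 (adjusted p = 0.114) and Cyp2j9 at -1.44 ± 0.38 (adjusted p = 0.127). For each of these 3 the dmPGE2 livers lay below all saline livers. The median over all members was -0.04, against 0.016 for all genes.

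Pretreated against saline livers had 45 members higher (34.8% of all genes) and 2 lower (30.2% of all genes) under TMM, and 19 higher (11.8% of all genes) and 3 lower (47.6% of all genes) with totals. All 19 kept the call with any 1 library left out. They included Cyp2b10 (3.81 ± 0.48, adjusted p = 4.85e-06), Cyp26a1 (2.66 ± 0.40, adjusted p = 3.32e-05), Cyp2c29 (2.04 ± 0.24, adjusted p = 3.28e-06) and Cyp4f14 (1.72 ± 0.20, adjusted p = 2.76e-06). By subfamily, 8 of the 13 Cyp2c genes were called with totals but 1 of 7 Cyp2d, Cyp2d22. Cyp2a5 changed sign between scalings here, at 0.03 ± 0.25 under TMM (adjusted p = 0.911) and -0.66 with totals (adjusted p = 0.0251).

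The effect of injury was also measured a second time, on a dmPGE2 background, by comparing pretreated with dmPGE2 livers, which shares no library with GalN/LPS against saline. There 41 members were higher (35.3% of all genes) and 1 lower (31.4% of all genes), or 25 higher (10.7% of all genes) and 1 lower (50% of all genes) with totals. Of the 20 members higher after GalN/LPS, 19 (95%) were higher here too, which is 46.3% of the 41. In this comparison 41 of all 58 members (70.7%) were higher. Over all genes tested, the genes higher in both made up 66.5% of those higher after GalN/LPS and 51.5% of those higher here. Of the 4 members lower after GalN/LPS, 1 (25%), Cyp2u1, was lower here too, against 77.6% over all genes tested. Cyp3a13, lower after GalN/LPS, was at 0.31 ± 0.24 in this comparison (adjusted p = 0.265). Cyp2a5 and Cyp2r1, also lower after GalN/LPS, were called higher here under TMM. Their means were 558.6 and 15.31 CPM in pretreated livers, and 333.3 and 10.6 CPM in dmPGE2 livers. Neither call held with totals or without dmPGE2 2.

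A direct test asked whether the effect of dmPGE2 differed with and without GalN/LPS. This interaction was positive for 18 members (15.4% of all genes) and negative for 2 (19.6% of all genes) under TMM, and for 5 (1.28% of all genes) and 2 (36.4% of all genes) with totals. Leaving out GalN/LPS 2 gave 30 positive members (18.4% of all genes), and no other library moved that count beyond 1.5 times. Cyp26a1 had the largest value at 3.00 ± 0.60 (adjusted p = 0.0027), then Cyp2j9 at 2.66 ± 0.53 (adjusted p = 0.00256). Cyp2a5 (1.66 ± 0.37, adjusted p = 0.00446), Cyp1a2 (1.61 ± 0.35, adjusted p = 0.00416) and Cyp4f13 (1.15 ± 0.23, adjusted p = 0.0027) also passed on both scalings and with any 1 library left out. The negative ones were Cyp1b1 (-1.98 ± 0.63, adjusted p = 0.0243) and Cyp4b1 (-1.60 ± 0.47, adjusted p = 0.0181). Both were lost without GalN/LPS 1, at adjusted p of 0.0686 and 0.0574, and without dmPGE2 1, at 0.0629 and 0.0566, and Cyp1b1 also without saline 3, at 0.0554. For Cyp2b10 the interaction was -0.20 ± 0.61 (adjusted p = 0.814).

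**Figure D5:**
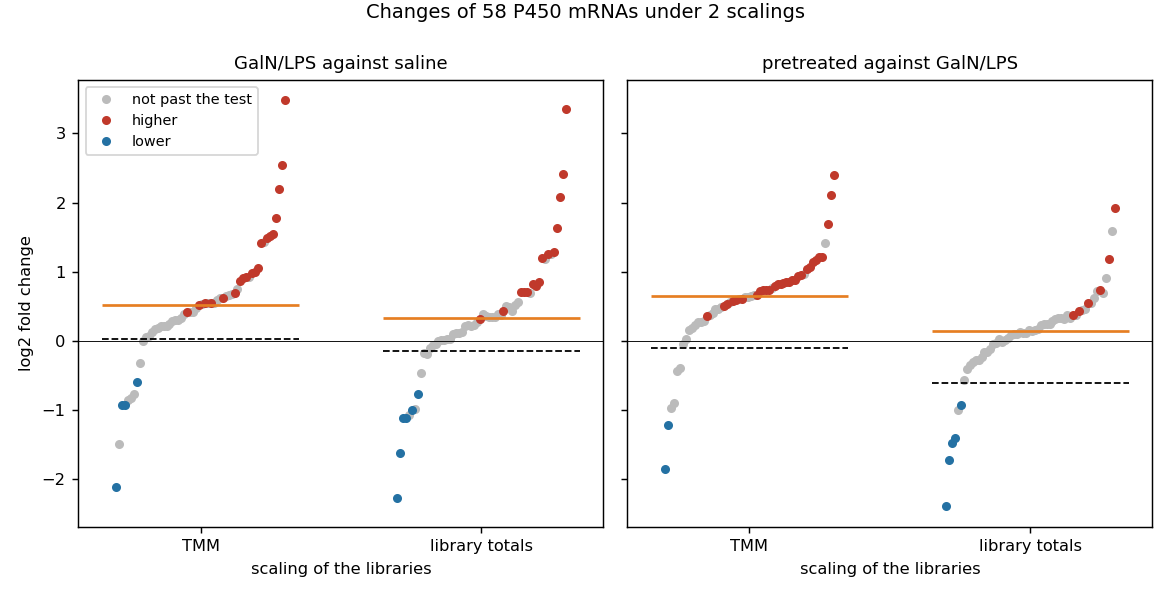
Points are log2 fold changes of the 58 members under TMM and under library totals, for GalN/LPS against saline and for pretreated against GalN/LPS, with orange lines at the member median and dashed lines at the median of all genes. In the right panel both lines drop together, by about the same amount, from TMM to totals, since a change of scaling moves all genes alike. The number of red (higher) points goes from 30 to 6.

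Electron partners pass electrons to the P450s, and heme is their cofactor. Of 9 electron partners tested, 0 were higher (27.4% of all genes) and 4 lower (25.6% of all genes) after GalN/LPS. The lower ones included Por, the P450 reductase (-0.79 ± 0.29, adjusted p = 0.0303), and the adrenodoxin gene Fdx1 (-0.49 ± 0.16, adjusted p = 0.0173). Pretreated livers exceeded GalN/LPS livers for 7 of the 9 under TMM (24.4% of all genes) and 3 with totals (4.33% of all genes). With totals 1 was lower (47.6% of all genes). Por itself was at 0.53 ± 0.27 under TMM (adjusted p = 0.108). Of 13 genes of heme synthesis and breakdown, 3 were higher (27.4% of all genes) and 3 lower (25.6% of all genes) after GalN/LPS. Alas1, the rate-limiting step of heme synthesis, was lower by -3.40 ± 0.36 (adjusted p = 9.9e-07), and Hmox1, which degrades heme, was higher by 3.84 ± 0.26 (adjusted p = 9.07e-09). In pretreated against GalN/LPS livers 9 of the 13 were higher (24.4% of all genes) and 1 lower (30.1% of all genes) under TMM. With totals 1 was higher (4.33% of all genes) and 2 lower (47.6% of all genes).

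Regulators of P450 genes mostly fell after GalN/LPS: 12 of 17 were lower (25.6% of all genes) and 1 higher (27.4% of all genes), at a median of -1.64. Ahr (-1.64 ± 0.18, adjusted p = 1.54e-06), Ppara (-1.72 ± 0.22, adjusted p = 9.29e-06) and Nr1i2, encoding PXR (-0.54 ± 0.18, adjusted p = 0.0185), were lower. Nr1i3, encoding CAR, was at -0.36 ± 0.28 (adjusted p = 0.299) and Hnf4a at 0.29 ± 0.19 (adjusted p = 0.222). In pretreated against GalN/LPS livers 3 regulators were higher (24.4% of all genes) and 7 lower (30.1% of all genes) under TMM. There Hnf4a was at 0.63 ± 0.18 (adjusted p = 0.00874) and Nr1i2 at 0.58 ± 0.17 (adjusted p = 0.0101). With totals no regulator was higher (4.33% of all genes) and 10 were lower (47.6% of all genes).

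Genes were also classed by the regulator or role they are known for, some of them P450 genes under the count minimum. Over all genes tested 27.4% were higher and 25.6% lower after GalN/LPS. In pretreated against GalN/LPS livers 24.4% were higher (4.33% with totals) and 30.1% lower (47.6% with totals). Of 10 tested genes of the CAR and PXR class, 6 were higher and 1 (Cyp3a13) lower after GalN/LPS. In pretreated against GalN/LPS livers 5 of them were higher (3 with totals). None of the 4 members of the PPAR alpha class passed in either comparison. Of 3 tested genes that clear retinoic acid 2 (Cyp26a1 and Cyp26b1) were higher after GalN/LPS and 1 (Cyp26a1) in pretreated against GalN/LPS livers (none with totals). The other gene, Cyp26c1, was not a member. Of 5 tested genes of steroid and vitamin D metabolism 1 (Cyp2r1) was lower and then higher. Of 8 pericentral members 4 were higher and 1 (Cyp2a5) lower after GalN/LPS, and 5 were higher in pretreated livers (2 with totals). Cyp2c29, Cyp2c37, Cyp2c50, Cyp2c54 and Cyp3a11 are also in the CAR and PXR class, so the counts of these classes are not independent.

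Hepatocyte markers, which check the tissue, were abundant in every library and higher in pretreated livers, as many members were. Summed, they ran from 92985 to 111107 CPM in saline livers and from 97335 to 140074 CPM after GalN/LPS. Pretreated livers spanned 151117 to 235262 CPM, and livers with dmPGE2 alone 73779.8 to 83237 CPM. None of the 8 were higher (27.4% of all genes) and 1 lower (25.6% of all genes) after GalN/LPS. In pretreated against GalN/LPS livers 8 of 8 were higher under TMM (24.4% of all genes) and 4 with totals (4.33%), at medians of 0.83 and 0.33. The members' medians in that comparison were 0.64 and 0.15. The part of the hepatocyte share of the RNA in the members' changes was not tested.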

How the data were processed

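Bulk RNA-seq of liver was available as 13 libraries in 4 groups. Reads were aligned with HISAT2 to GRCm38 (mm10), per the submitters' processing notes. Versions, counting tool, annotation release and strand handling are not given in these sources. The deposited tables name the columns of injured livers ALF, with or without dmPGE2, and these were matched to the libraries whose titles give Dgaln/LPS, since the other columns are named Control or dmPGE2. The mice are called AILI in the series' design text, a term the labels of single samples do not use. The authors deposited raw counts per gene for each library. The authors also deposited FPKM values per gene, used here for levels per length and for alternatives with limma 3.58.1 on log2(FPKM + 1) and log2(FPKM + 0.1).

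The FPKM values carry a between-library scaling close to TMM, a step no source states, so FPKM alternatives do not test the scaling. Counts were tested with edgeR 4.0.16 (R 4.3.3): TMM scaling, filterByExpr by group (14280 of 54532 genes and 99.92% of counts kept), 1 quasi-likelihood fit over all 13 libraries (9 residual degrees of freedom) and Benjamini-Hochberg adjustment over all genes tested at 0.05. Alternatives were library totals, RLE, DESeq2 1.42.0, other filters, only the groups compared, a replicate block and leaving out each library. Precision rests on 3 or 4 libraries a group, and on library totals of 14829838 to 20777809 counts.

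The members, and the lists of pathway genes and cell markers, were chosen with earlier results of these data known. Values in every library were given for the 10 members with the most counts, the leading gene of each larger subfamily and those with the largest called changes, without overlap between groups and averaging 5 CPM or more where they were higher. Cyp2c40, Cyp2j9, Cyp4a14, Cyp4f18, Cyp17a1 and Cyp26b1 were added after their values were seen. Sequence sharing is the share of 50-base stretches of a gene's reference transcripts found in those of another gene.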

Additional observations from a re-analysis of the deposited data

Results flagged for a closer look

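Of 27 sets of pretreated libraries examined for 1 value far from the others, 2 stood out, and chance alone marks about 1 set in 20. Cyp2c70 was at 1054.3 CPM in pretreated 3, while the other pretreated livers were at 1635 to 1743 CPM. Cyp4b1 was at 16.6 CPM in pretreated 2, against 6.08 to 7.77 CPM in the others.

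The effect of dmPGE2 with GalN/LPS differed from its effect without it, by edgeR's quasi-likelihood test of the interaction under TMM, for 14 of the members described singly. The differences were 3.00 for Cyp26a1 (adjusted p = 0.0027), 1.66 for Cyp2a5 (adjusted p = 0.00446) and 1.61 for Cyp1a2 (adjusted p = 0.00416). These 3 also passed with library totals, as did Cyp1b1 and Cyp4b1, while the other 9 did not. Cyp2c23 (1.35, adjusted p = 0.0162), Cyp3a13 (1.23, adjusted p = 0.0148), Cyp3a11 (1.19, adjusted p = 0.0196), Cyp2r1 (1.11, adjusted p = 0.00566) and Cyp2c67 (1.05, adjusted p = 0.0102) followed. Smaller positive values were found for Cyp2d26 (0.95, adjusted p = 0.0117), Cyp2d9 (0.89, adjusted p = 0.0263), Cyp2j5 (0.71, adjusted p = 0.0292) and Cyp4v3 (0.66, adjusted p = 0.0174). Cyp1b1 (-1.98, adjusted p = 0.0243) and Cyp4b1 (-1.60, adjusted p = 0.0181) had negative values. Leaving out 1 library ended the call of Cyp3a11 without GalN/LPS 3 (1.09, adjusted p = 0.0514) and of Cyp4v3 without GalN/LPS 1 (adjusted p = 0.0506). Cyp2d9 lost it without saline 1, saline 2, GalN/LPS 3 or dmPGE2 2 (adjusted p of 0.0540 to 0.0812), and Cyp2j5 without saline 1 or 3, GalN/LPS 1 or 3, pretreated 4, or dmPGE2 1 or 3 (adjusted p of 0.0511 to 0.0808). Cyp1b1 and Cyp4b1 lost it without GalN/LPS 1 or dmPGE2 1, and Cyp1b1 also without saline 3.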

How the results depend on the processing

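With library totals in place of TMM, members higher in pretreated livers numbered 6 against GalN/LPS (5 lower), 19 against saline and 25 against dmPGE2, and 5 had a positive interaction. The shares of all genes were 4.33% (47.6% lower), 11.8%, 10.7% and 1.28% in that order. Among the members described singly, totals also turned the sign of a value called on at least 1 scaling for Cyp20a1 in pretreated against GalN/LPS livers (-0.16), for Cyp2a5 in pretreated against saline (-0.66) and against dmPGE2 livers (-0.023), and for Cyp2r1 in pretreated against dmPGE2 livers (-0.24). Over all 58 members, called or not, the sign differed for 12 in pretreated against GalN/LPS livers, 1 of them called under TMM. DESeq2 called 1 member higher and 3 lower after dmPGE2 alone (0.511% and 0.559% of all genes), and edgeR without a filter 2 and 8 (1.08% and 0.638%). Without a filter 2 members were lower in pretreated against dmPGE2 livers, as were 5167 of all 26810 genes. With limma on log2(FPKM + 1) or log2(FPKM + 0.1) 4 members were lower in pretreated against GalN/LPS livers. Of all 14280 genes 4552 and 4686 were lower in those fits. Limma without a filter called 12 members higher after GalN/LPS, and 4347 of all 26810 genes. DESeq2, the 3 limma settings and the replicate block each left 1 member lower in pretreated against saline livers. Over all genes these settings called 4036 to 4557 lower. The cause of these differences was not tested.

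Replicate numbers did not pair the libraries: same-numbered libraries of different groups had correlations of -0.31 to 0.087, and none of 18 exceeded 0.1. The replicate block left 1 member with a negative interaction, a call that 2154 of all 14280 genes had there. Leaving out 1 library at a time gave 10 to 21 members higher and 4 to 5 lower after GalN/LPS, and 22 to 37 higher and 2 to 3 lower in pretreated against GalN/LPS livers. It gave 0 to 1 higher and 0 lower after dmPGE2 alone, 40 to 45 higher and 1 to 2 lower in pretreated against saline, 35 to 43 higher and 1 lower in pretreated against dmPGE2, and 13 to 30 positive and 0 to 2 negative interactions. After GalN/LPS, the fit with 10 members higher had 3637 of 14666 genes higher, and that with 21 had 3805 of 14581. For pretreated against GalN/LPS livers, the fit with 22 had 2477 of 14532 and that with 37 had 3631 of 14666. Positive interactions numbered 1508 of 14581 genes beside 13 members and 2705 of 14666 beside 30.

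The summed share of the members was 1.78%, 2.35%, 4.10% and 1.68% on TMM-scaled library sizes in saline, GalN/LPS, pretreated and dmPGE2 livers. Without Cyp2e1 it was 1.57%, 1.90%, 2.32% and 1.53% in the same order. As a share of summed FPKM it was 1.83%, 1.98%, 2.57% and 1.97% in the order given. Of the values recomputed with 1 library left out, 2014 kept direction and side of the threshold, 72 lost and 20 gained a call. Of those under other alternatives 1471 did so, 96 lost and 22 gained a call and 4 turned sign. Depth limits Cyp1a1, Cyp2a4 and Cyp4f18, which had a mean under 10 counts in some group.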
